A study of Mus musculus with 24 samples.

Results

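The mRNAs of 10 immediate early genes were followed in dispersed mouse islet cells exposed to palmitate with or without inhibition of a tRNA fragment. The genes were Fos, Fosb, Jun, Junb, Egr1, Egr2, Nr4a1, Nr4a2, Ier2 and Npas4, taken by gene symbol from a table of 41549 genes. All 10 passed the filter on low counts, as did 15916 genes of the table.

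Immediate early genes are the first genes transcribed when a cell receives a signal, because the transcription factors that switch them on are already present and need no new protein synthesis. In the β-cell, glucose, depolarization, calcium entry and cAMP act on them through CREB, the serum response factor and the MAP kinases. Most encode transcription factors themselves: FOS and JUN proteins pair into AP-1, EGR1 and EGR2 are zinc finger factors, NR4A1 and NR4A2 are orphan nuclear receptors, and NPAS4 is an activity-dependent factor of the bHLH-PAS family. IER2 is a nuclear protein encoded by a short, rapidly induced transcript.

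Islet cells came from wild-type C57BL/6NRj mice of both sexes and were transfected with lipofectamine and 50 pmol of a locked nucleic acid antisense oligonucleotide (ASO), either a control sequence (Ctr) or one directed at 5'tRF-Glu(CTC) (αGlu), the 5' fragment of a glutamate tRNA. They then received 0.5 mM palmitate (PA), a saturated fatty acid, bound to bovine serum albumin, or 0.75% albumin alone (BSA). The paper treats such exposure as prolonged, and no time course of induction was sampled. Each ASO was combined with each medium, which gives 4 groups of 6 libraries, 3 in each of 2 batches, and what the batches are is not stated in the records. All groups, controls included, were thus dispersed, transfected and albumin-treated, and no untransfected or untreated islets were among them. Libraries are named S1 to S24 as in the records.

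Libraries held 18214719 to 35001979 reads on genes, of which 4343 to 11063 fell on the 10 genes. Levels are given as CPM, read counts scaled to a common library size. The cells carried endocrine transcripts: 8 β-cell markers summed to 83668 to 151418 CPM and 4 α-cell markers to 9572 to 25203 CPM. Further features of the samples touch the results below. In batch 2 all 7 acinar markers were lower (median log2 fold change -4.37), with a summed level of 213 to 585 CPM against 2936 to 21110 CPM in batch 1, and all 8 β-cell markers were higher (median 0.54). Of 4 α-cell markers 3 were lower and 1 higher (-0.58), of 5 ductal markers 4 were lower and 1 higher (-1.0), 2 of 5 endothelial markers were lower (-0.61) and 2 of 5 glial markers higher (1.19). The PP-cell marker Ppy was also lower in batch 2 (-0.79), as was 1 of 3 δ-cell markers (median -0.17). Higher in batch 2 were 1 of 7 macrophage markers (median 0.58) and 1 of 2 mesothelial markers. With PA, fibroblast and stellate cell markers were among those lower, as given beside the PA results. Libraries S23 (Ctr PA, batch 2) and S1 (Ctr BSA, batch 1) lay farthest from the other libraries of their group and batch, with a median absolute log2 difference of 0.302 and 0.283 against 0.101 to 0.188 for the other 22.

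The promoters of the genes were searched for motifs of signal-responsive transcription factors. The RefSeq windows used here run from 250 bases before to 50 bases after the transcription start (GRCm38.p6) and were at hand for 8 of the 10 genes. They are printed 5' to 3' on the strand of the gene for the 5 genes that were lower with PA under both ASOs, and for Npas4, which was not called, as a contrast. Capitals mark the core of the cAMP response element, TGACG, or its reverse complement CGTCA. The Fos window lies at chr12:85473640-85473939 on the plus strand, Junb at chr8:84978699-84978998 on the minus strand, Egr2 (the third of 5 annotated windows) at chr10:67537619-67537918 on the plus strand, Nr4a1 at chr15:101266596-101266895 on the plus strand, Nr4a2 at chr2:57123954-57124253 on the minus strand and Npas4 at chr19:4989922-4990221 on the minus strand.
Nr4a1: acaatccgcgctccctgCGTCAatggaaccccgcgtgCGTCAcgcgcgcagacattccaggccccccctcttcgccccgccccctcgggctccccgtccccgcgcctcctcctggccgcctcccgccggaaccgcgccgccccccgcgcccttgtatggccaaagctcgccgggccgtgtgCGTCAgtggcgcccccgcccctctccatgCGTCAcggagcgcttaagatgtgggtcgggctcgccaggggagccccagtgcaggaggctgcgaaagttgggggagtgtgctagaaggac
Nr4a2: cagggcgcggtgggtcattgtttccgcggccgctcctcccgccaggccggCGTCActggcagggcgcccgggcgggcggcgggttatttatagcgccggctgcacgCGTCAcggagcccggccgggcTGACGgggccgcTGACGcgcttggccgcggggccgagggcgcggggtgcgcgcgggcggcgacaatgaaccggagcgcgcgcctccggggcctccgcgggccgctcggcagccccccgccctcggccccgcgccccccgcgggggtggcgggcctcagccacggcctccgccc
Fos: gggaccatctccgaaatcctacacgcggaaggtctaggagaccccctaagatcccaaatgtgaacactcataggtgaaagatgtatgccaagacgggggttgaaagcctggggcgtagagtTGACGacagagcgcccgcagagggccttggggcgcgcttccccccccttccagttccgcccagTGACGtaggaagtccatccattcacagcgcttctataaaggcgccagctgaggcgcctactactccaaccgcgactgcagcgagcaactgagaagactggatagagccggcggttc
Junb: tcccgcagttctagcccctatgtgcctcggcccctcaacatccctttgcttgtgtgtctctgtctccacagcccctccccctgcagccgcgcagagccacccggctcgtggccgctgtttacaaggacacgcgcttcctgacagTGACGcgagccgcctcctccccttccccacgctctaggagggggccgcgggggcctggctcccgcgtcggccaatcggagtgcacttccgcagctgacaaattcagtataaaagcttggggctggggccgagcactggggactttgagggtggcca
Egr2: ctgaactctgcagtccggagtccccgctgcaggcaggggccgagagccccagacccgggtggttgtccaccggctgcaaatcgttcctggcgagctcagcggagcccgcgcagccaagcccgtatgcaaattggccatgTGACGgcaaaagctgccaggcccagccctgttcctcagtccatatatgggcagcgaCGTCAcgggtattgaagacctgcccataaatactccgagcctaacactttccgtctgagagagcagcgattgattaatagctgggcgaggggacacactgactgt
Npas4: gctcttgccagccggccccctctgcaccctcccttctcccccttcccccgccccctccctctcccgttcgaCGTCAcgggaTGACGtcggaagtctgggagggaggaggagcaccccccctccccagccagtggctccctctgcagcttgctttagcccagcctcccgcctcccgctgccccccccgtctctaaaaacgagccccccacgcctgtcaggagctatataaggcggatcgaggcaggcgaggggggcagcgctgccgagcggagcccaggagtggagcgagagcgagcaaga

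Nr4a1 and Nr4a2 each held 4 copies of TGACG, counted on both strands, a number reached by 0.231% of 32851 mouse promoter windows of the same length. Fos, Egr2 and Npas4 held 2 copies, which 5.01% of promoters reach or exceed, and Junb and Fosb held 1. The Jun window and the first 2 of the 5 Egr2 windows had none. At least 1 copy was thus found in 7 of the 8 genes, with Egr2 counted through 3 of its 5 windows. Of all promoter windows, counted singly, 20.8% held a copy, and the other shares of promoters given here are also of single windows. None of the 8 had the full palindrome TGACGTCA, present in 1.79% of promoters, or the AP-1 element TGANTCA, present in 7.81%. A CArG box, the site of the serum response factor, was found in Egr2 alone of the 8 genes and in 1.63% of promoters. Sites more than 250 bases before the start were not searched, and Egr1 and Ier2 had no window. These matches describe the letters of the windows only, and since the motif is shared by Npas4, its copy number did not separate the genes that were called from those that were not.

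To compare the genes with each other, the deposited TPM values, which are scaled for transcript length as well as depth, were used. In Ctr BSA islet cells the most abundant were the AP-1 subunits Junb, at 74.6 ± 26.5 TPM (SD, n = 6), and Jun, at 70 ± 14.2 TPM. The nuclear receptor Nr4a2 followed at 29.0 ± 7.48 TPM, then Nr4a1 at 21.6 ± 6.97 TPM, Ier2 at 21.4 ± 10.3 TPM and Fos at 20.5 ± 5.12 TPM. Egr1 stood at 14.5 ± 3.42 TPM and Npas4 at 3.95 ± 0.787 TPM. Fosb, at 1.29 ± 0.227 TPM, and Egr2, at 0.634 ± 0.488 TPM, were far lower still. Over both batches, Junb and Jun differed by less than the SD of either, as did Nr4a1 and Ier2, and Ier2 and Fos. The order of some genes depended on the batch. In Ctr BSA, Ier2 had a mean of 30.4 TPM and Nr4a1 of 15.8 TPM in batch 1, against 12.4 and 27.4 TPM in batch 2. Junb and Jun had means of 93.8 and 79.6 TPM in batch 1 and of 55.5 and 60.3 TPM in batch 2. The step from Nr4a2 to Nr4a1 exceeded the SD of Nr4a1 but not that of Nr4a2, while the steps from Jun to Nr4a2, from Fos to Egr1, from Egr1 to Npas4, from Npas4 to Fosb and from Fosb to Egr2 exceeded the SD of both genes.

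**Figure D1:**
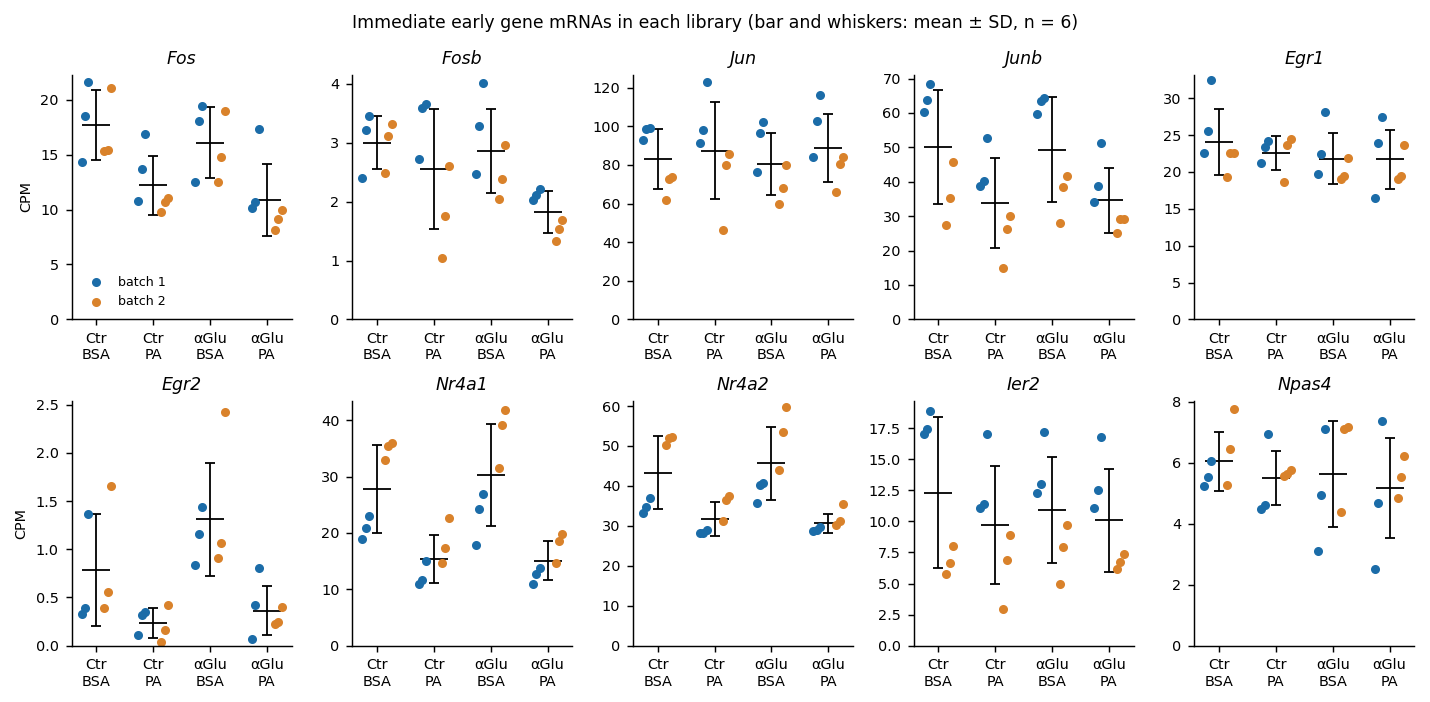
Level of each immediate early gene mRNA in every library. The vertical axes give CPM (read counts scaled by TMM, starting at 0) and the horizontal axes the 4 groups. Points are libraries, blue for batch 1 and orange for batch 2, and black bars with whiskers are the mean ± SD of 6 libraries. Nr4a1 and Nr4a2 are lower in the PA groups in both batches, and Ier2 and Junb are lower in batch 2.

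Exposure to PA lowered part of the family and raised none of it. With the Ctr ASO, 5 of the 10 genes fell at an edgeR adjusted p below 0.05 (Nr4a1, Nr4a2, Junb, Fos and Egr2) and 0 rose. With the αGlu ASO, the same 5 genes and Fosb fell and 0 rose. These shares stand against a broad response of the transcriptome: of all genes tested, 30% were called with the Ctr ASO (14.5% lowered and 15.5% raised) and 28.5% with the αGlu ASO (14.2% lowered and 14.4% raised). The median log2 fold change of the 10 genes was -0.36 with Ctr and -0.52 with αGlu, against 0.01 over all genes in both. At the study's own threshold, a fold change over 2 with an unadjusted p below 0.05, Egr2 passed as the single member under either ASO, where 5.91% and 5.57% of all genes did.

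**Figure D2:**
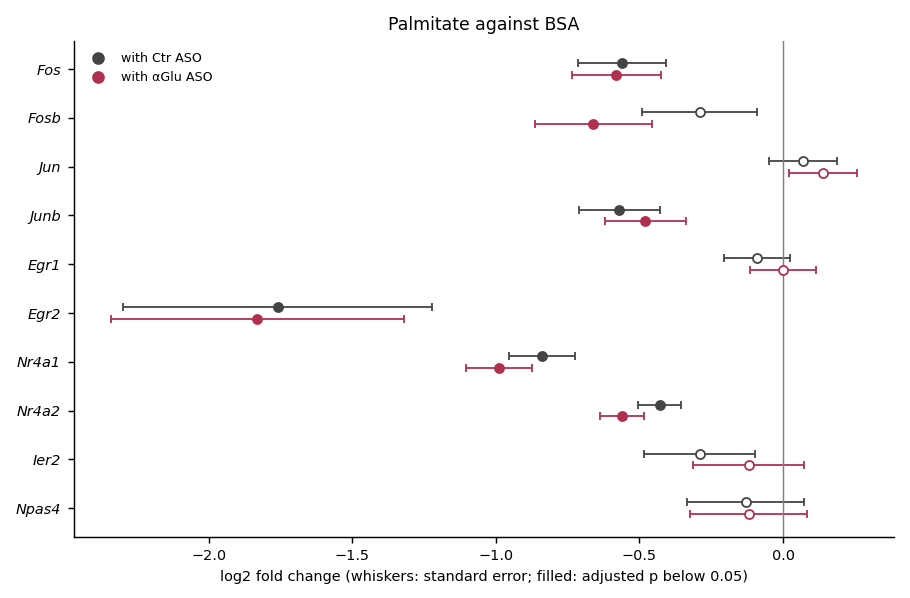
Response of each gene to PA. The horizontal axis is the log2 fold change of PA against BSA, with whiskers for the standard error, in grey with the Ctr ASO and in red with the αGlu ASO (12 libraries each, all 24 in the fit). Filled points passed an adjusted p of 0.05. Egr2 has the largest change and the widest error, from -1.76 to -1.83, while Jun and Egr1 lie near 0.

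The 2 nuclear receptors gave the steadiest decrease. Nr4a1 (chr15:101254269-101274795, plus strand, GENCODE M21) measured 18.9, 28.0 and 35.9 CPM in Ctr BSA (lowest, median and highest library) and 10.9, 14.9 and 22.7 CPM in Ctr PA, with a log2 difference of -0.84 (SE 0.115, adjusted p = 7.02e-06). With αGlu it measured 17.9, 29.3 and 41.9 CPM in BSA and 11, 14.2 and 19.8 CPM in PA, a log2 fold change of -0.99 (SE 0.115, adjusted p = 8.93e-07). Over both batches the PA and BSA groups overlapped at their edges, while within each batch they did not overlap: in Ctr the BSA libraries of batch 1 lay at 18.9 to 23 CPM and the PA libraries at 10.9 to 15.1 CPM, and in batch 2 at 33.0 to 35.9 and 14.7 to 22.7 CPM.

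Nr4a2 (chr2:57106830-57124003, minus strand) had the smallest spread of the 10 genes, with a biological coefficient of variation of 9.20%. It measured 33.2, 43.6 and 52.3 CPM in Ctr BSA and 28.1, 30.1 and 37.4 CPM in Ctr PA, and its log2 fold change was -0.43 (SE 0.0760, adjusted p = 1.29e-04). With αGlu the values were 35.7, 42.4 and 59.7 CPM in BSA and 28.7, 29.9 and 35.4 CPM in PA, a log2 difference of -0.56 (SE 0.0759, adjusted p = 6.11e-06). In the αGlu libraries every PA value lay below every BSA value. Nr4a1 and Nr4a2 were the members whose PA libraries lay below all BSA libraries in each of the 4 combinations of ASO and batch, as 3.91% of all genes did.

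Among the AP-1 subunits the response was uneven. Fos (chr12:85473890-85477273, plus strand), the partner of JUN that is usually induced most steeply, measured 14.3, 16.9 and 21.6 CPM in Ctr BSA and 9.77, 11 and 16.9 CPM in Ctr PA. It fell by 0.56 on the log2 scale (SE 0.153, adjusted p = 0.00733), and by 0.58 with αGlu (SE 0.154, adjusted p = 0.00642), where BSA libraries lay at 12.5, 16.5 and 19.4 CPM and PA libraries at 8.10, 10 and 17.3 CPM. In batch 1 the PA and BSA libraries overlapped under both ASOs, and batch 1 fitted alone did not call Fos (log2 fold change -0.41 with Ctr, adjusted p = 0.290, and -0.40 with αGlu, adjusted p = 0.314).

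Junb (chr8:84974484-84978718, minus strand), a JUN protein that is a weaker activator than JUN itself, measured 27.5, 53.0 and 68.5 CPM in Ctr BSA and 15, 34.4 and 52.6 CPM in Ctr PA, with a log2 difference of -0.57 (SE 0.142, adjusted p = 0.00349). With αGlu it went from 28.0, 50.7 and 64.3 CPM to 25.2, 31.7 and 51.4 CPM, a log2 fold change of -0.48 (SE 0.141, adjusted p = 0.0123). The ranges overlapped widely because the batches differ, and without a batch term the log2 fold change was -0.57 with Ctr (adjusted p = 0.158) and -0.51 with αGlu (adjusted p = 0.218). In batch 1 the Ctr BSA libraries at 60.4 to 68.5 CPM all exceeded the Ctr PA libraries at 38.8 to 52.6 CPM, while in batch 2 those of 27.5 to 45.7 and 15 to 30 CPM overlapped, and batch 2 alone did not call Junb (log2 fold change -0.60 with Ctr, adjusted p = 0.121, and -0.37 with αGlu, adjusted p = 0.353).

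Fosb (chr7:19302696-19310051, minus strand), a second FOS protein, was called with αGlu only. It measured 2.04, 2.71 and 4.01 CPM in αGlu BSA and 1.33, 1.85 and 2.22 CPM in αGlu PA, a log2 difference of -0.66 (SE 0.203, adjusted p = 0.0170), and was not called in either batch alone (adjusted p = 0.120 and 0.183). In the Ctr libraries it measured 2.40, 3.17 and 3.46 CPM in BSA and 1.04, 2.67 and 3.65 CPM in PA, a log2 difference of -0.29 (SE 0.201, adjusted p = 0.293). The difference between the 2 responses was -0.37 (95% confidence interval -0.96 to 0.22, adjusted p = 0.999), so the response was not shown to differ between the ASOs.

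Jun (chr4:95049034-95052222, minus strand), the main partner in AP-1, had 61.8, 83.4 and 98.9 CPM in Ctr BSA and 46.3, 88.7 and 123 CPM in Ctr PA. The log2 fold change was 0.07 (95% interval -0.18 to 0.31, adjusted p = 0.703), and with αGlu 0.14 (-0.10 to 0.39, adjusted p = 0.392). The PA range enclosed the BSA range in the Ctr libraries. Jun is overlapped by its antisense gene Junos, at a mean of 29 reads a library against 2272 for Jun. Junb shares 351 bases with Prdx2 on the opposite strand, which had a mean of 2049 reads a library against 1118 for Junb. Whether the reads were counted by strand is not given in the sources used here, so such reads could not be told apart.

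The 2 zinc finger factors behaved unlike each other. Egr2 (chr10:67535475-67542188, plus strand), a factor best known from Schwann cells and lymphocytes, was the lowest of the 10 genes, with 1 to 61 reads a library. It measured 0.330, 0.473 and 1.66 CPM in Ctr BSA and 0.0358, 0.239 and 0.423 CPM in Ctr PA, a log2 fold change of -1.76 (SE 0.538, adjusted p = 0.0154). With αGlu it measured 0.837, 1.11 and 2.42 CPM in BSA and 0.0717, 0.324 and 0.810 CPM in PA, a log2 fold change of -1.83 (SE 0.510, adjusted p = 0.00864). The αGlu groups did not overlap, as the αGlu groups of Nr4a2 did not, whereas no member's Ctr groups were free of overlap. By comparison 3.95% of all genes were lowered without overlap with αGlu and 2.86% with Ctr. The Ctr result rested on libraries S21 and S5, the 2 highest of Ctr BSA: without S21 the adjusted p was 0.0599, and without S5 it was 0.0558. Neither batch alone called Egr2 under either ASO (adjusted p from 0.0523 to 0.257).

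Egr1, the most studied early growth response factor, measured 19.3, 22.5 and 32.4 CPM in Ctr BSA and 18.6, 23.5 and 24.5 CPM in Ctr PA, with a log2 difference of -0.09 (95% interval -0.32 to 0.15, adjusted p = 0.594). With αGlu the values were 19.1, 20.8 and 28.1 CPM in BSA and 16.4, 21.6 and 27.4 CPM in PA, and the log2 fold change was 0.00 (-0.24 to 0.23, adjusted p = 0.984). The medians of the 4 groups stayed between 20.8 and 23.5 CPM.

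Ier2 (chr8:84661331-84662852, minus strand) measured 5.80, 12.5 and 18.9 CPM in Ctr BSA and 2.94, 10 and 17 CPM in Ctr PA, a log2 difference of -0.29 (-0.69 to 0.11, adjusted p = 0.273). With αGlu it was -0.12 (-0.51 to 0.28, adjusted p = 0.700). Npas4 (chr19:4984355-4990316, minus strand), which in neurons follows calcium entry and is also expressed in β-cells, measured 5.25, 5.81 and 7.77 CPM in Ctr BSA and 4.48, 5.60 and 6.95 CPM in Ctr PA, with a log2 difference of -0.13 (-0.55 to 0.29, adjusted p = 0.665) with Ctr and -0.12 (-0.54 to 0.30, adjusted p = 0.720) with αGlu. Over both batches the groups of both genes overlapped almost fully. For Ier2 this overlap includes the difference between the batches. In batch 1 its Ctr BSA libraries lay at 17 to 18.9 CPM and its Ctr PA libraries at 11.1 to 17 CPM. In batch 2 they overlapped, at 5.80 to 8 and 2.94 to 8.93 CPM. Neither batch alone called Ier2 with Ctr (log2 fold change -0.44, adjusted p = 0.156, and -0.12, adjusted p = 0.848). With αGlu the single-batch log2 fold changes were -0.08 and -0.16.

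Markers of several cell types, most of them non-endocrine, moved with PA in the same libraries. Of the 7 fibroblast and stellate cell markers that passed the filter, 6 were lower with Ctr (median log2 fold change -2.94) and 4 with αGlu (-2.27). Their summed level was 134 to 563 CPM in Ctr BSA against 11.2 to 63.0 CPM in Ctr PA, and 88.6 to 1063 CPM in αGlu BSA against 12 to 170 CPM in αGlu PA. Lum, the marker that did not pass, had no read in 10 libraries, and Col1a1 and Pdgfra had none in 1. Of the 7 macrophage markers 5 were lower with Ctr (median log2 fold change -2.20) and 1 with αGlu (-0.39). Their sum was in Ctr 76.9 to 346 CPM (BSA) and 84.2 to 127 CPM (PA), and in αGlu 89.3 to 169 CPM (BSA) and 80.3 to 137 CPM (PA). C1qa, at a mean of 2280 reads a library against 17 to 506 for the others, made up most of this sum. Of the 7 acinar markers 5 were lower under each ASO (medians -1.09 with Ctr and -0.98 with αGlu). Their sums in Ctr were 406 to 21110 CPM (BSA) and 213 to 7937 CPM (PA), and in αGlu 492 to 13064 CPM (BSA) and 303 to 7062 CPM (PA). Ductal markers were lower for 2 of 5 under each ASO (medians -0.75 with Ctr and -0.78 with αGlu), with sums in Ctr of 189 to 456 CPM (BSA) and 169 to 418 CPM (PA), and in αGlu of 211 to 421 CPM (BSA) and 201 to 387 CPM (PA). None of the 5 endothelial markers was called (medians -0.84 and -0.61), nor any of the 5 glial markers (-0.72 and -1.06). Among the 8 β-cell markers 3 rose and 3 fell with Ctr and the median was -0.05. Of the 3 δ-cell markers 1 was lower under each ASO (medians -0.41 with Ctr and -0.36 with αGlu). The PP-cell marker Ppy was lower with Ctr (-0.50) and not called with αGlu (-0.23). None of the 4 α-cell markers was called (medians 0.09 and 0.03). Of the 2 mesothelial markers tested, 1 was lower with Ctr, and 1 was lower and 1 higher with αGlu. The part of these cells in the levels of the immediate early genes was not tested, and in whole islet cell RNA fewer cells of a type and less RNA per cell cannot be told apart.

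Inhibition of 5'tRF-Glu(CTC) changed none of the 10 genes at an adjusted p below 0.05 in edgeR, whether in BSA, in PA or in the difference between the 2 PA responses. The percentage of all genes called was 0 in each of these comparisons, with 461, 538 and 332 genes at an unadjusted p below 0.05. DESeq2 called 8, 27 and 1 genes, and no member among them. At the study's threshold, 0.785%, 0.942% and 0.653% of genes passed, again with no member.

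**Figure D3:**
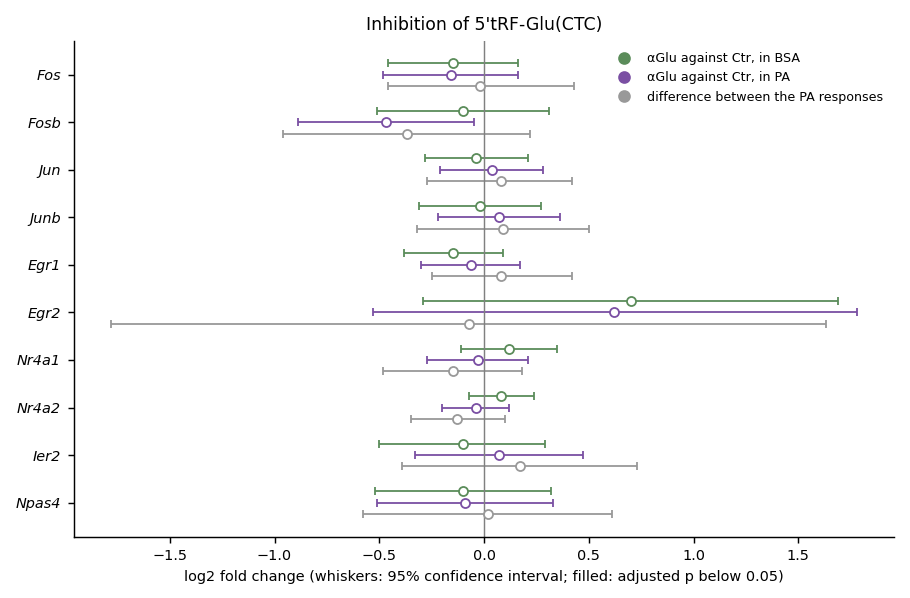
Effect of the αGlu ASO on each gene. The horizontal axis is the log2 fold change of αGlu against Ctr in BSA (green) and in PA (purple), and the difference between the PA responses (grey), with 95% confidence intervals. All points are open, since no gene passed an adjusted p of 0.05, and the intervals are narrowest for Nr4a2, from -0.07 to 0.24 in BSA, and widest for Egr2.

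The intervals show how large an effect of the ASO the data leave room for. For Nr4a2 the log2 difference between αGlu and Ctr was 0.08 (95% confidence interval -0.07 to 0.24) in BSA and -0.04 (-0.20 to 0.12) in PA. For Nr4a1 it was 0.12 (-0.11 to 0.35) and -0.03 (-0.27 to 0.21), and for Jun -0.04 (-0.28 to 0.21) and 0.04 (-0.21 to 0.28). Egr1 differed by -0.15 (-0.38 to 0.09) in BSA and -0.06 (-0.30 to 0.17) in PA.

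Fos stood at -0.15 (-0.46 to 0.16) and -0.16 (-0.48 to 0.16), and Junb at -0.02 (-0.31 to 0.27) and 0.07 (-0.22 to 0.36). Ier2 and Npas4 lay between -0.10 and 0.07 in both media. For every member but Egr2, a 2-fold change in either direction lay outside the 95% interval in BSA and in PA. The member with the smallest unadjusted p was Fosb in PA, at -0.47 (-0.89 to -0.05, unadjusted p = 0.0302, adjusted p = 0.993). Egr2 was higher with αGlu by 0.70 in BSA (-0.29 to 1.69, adjusted p = 1.00) and by 0.62 in PA (-0.53 to 1.78, adjusted p = 0.993), intervals that include both no change and a change of over 2-fold. In BSA the Egr2 libraries lay at 0.837 to 2.42 CPM with αGlu and at 0.330 to 1.66 CPM with Ctr, and the groups overlapped. Single libraries moved this value: in BSA it was 0.40 without S18 and 1.10 without S21, and in PA 0.22 without S8 and 0.40 without S23. Among the 5 glial markers, of the cells in which Egr2 is best known, 0 were called for the ASO, with median log2 fold changes of -2.57 in BSA and -2.90 in PA. Their summed level was 7.95 to 88.8 CPM in Ctr BSA, 6.11 to 24.6 CPM in αGlu BSA, 11 to 63.4 CPM in Ctr PA and 5.29 to 10.3 CPM in αGlu PA. Of the 7 fibroblast and stellate markers tested, 0 were called for the ASO (medians 0.09 in BSA and 0.25 in PA). The same held for the 7 macrophage markers (-0.99 and 0.81). In S18, S21, S8 and S23 the fibroblast and stellate sums were 1063, 257, 170 and 32.8 CPM. The macrophage sums there were 146, 346, 121 and 90.9 CPM. The part of these cells in the Egr2 level was not tested.

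The difference between the PA responses was -0.13 for Nr4a2 (-0.35 to 0.10), -0.15 for Nr4a1 (-0.48 to 0.18), -0.02 for Fos (-0.46 to 0.43) and 0.09 for Junb (-0.32 to 0.50). For Egr2 it was -0.07 with an interval of -1.78 to 1.63. The data thus bound a difference between ASOs most closely for Nr4a2 (SE 0.107) and hardly at all for Egr2 (SE 0.826). Nr4a1 (SE 0.162) was bounded about as closely as Egr1 (SE 0.162) and Jun (SE 0.167).

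The batches differed in the level of most of these genes, and in opposite directions. In batch 2 the nuclear receptors were higher, Nr4a1 by 0.62 on the log2 scale (SE 0.0810, adjusted p = 6.03e-07) and Nr4a2 by 0.36 (SE 0.0537, adjusted p = 4.33e-06). Ier2 was lower by the most, with a log2 fold change of -1.09 (SE 0.137, adjusted p = 3.80e-07), followed by Junb at -0.77 (SE 0.10, adjusted p = 6.14e-07), Jun at -0.46 (SE 0.0839, adjusted p = 6.37e-05) and Fosb at -0.44 (SE 0.143, adjusted p = 0.0114). Thus 2 members were raised and 5 lowered, where 51.5% of all genes were called (26.1% raised and 25.4% lowered). At the study's threshold Ier2 alone of the 10 passed, as did 6.38% of all genes.

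The fifth lowered gene, Fos (-0.26, SE 0.108, adjusted p = 0.0462), lay at the threshold and kept its call in 7 of 24 fits that each left out 1 library. Egr1 missed it (-0.18, adjusted p = 0.0737) and passed in 4 of 24 such fits. Egr2 (-0.01, adjusted p = 0.987) and Npas4 (0.19, adjusted p = 0.276) were not called. Acinar, β-cell and other cell type markers given above moved with the batches as well, and their part in these differences was not tested.

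**Figure D4:**
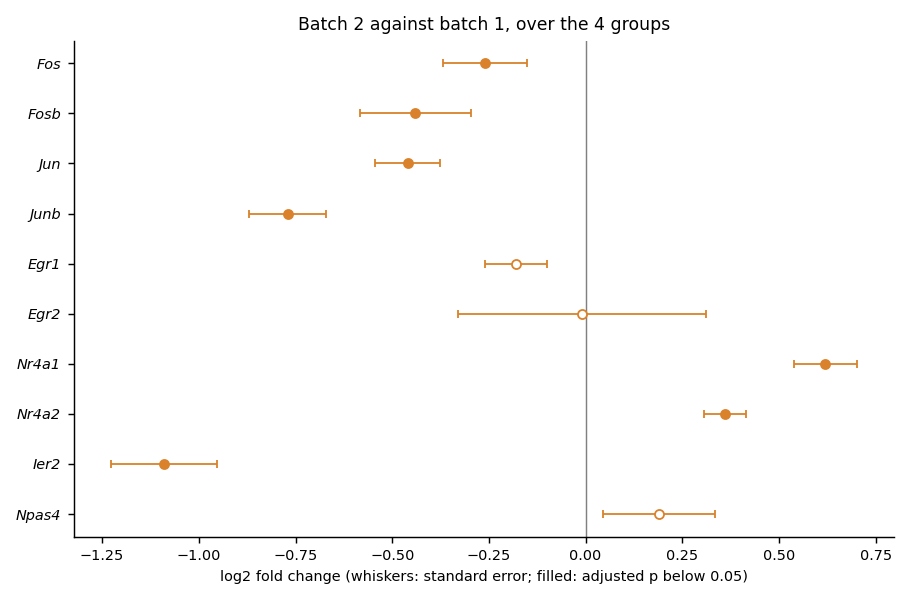
Difference between the batches for each gene. The horizontal axis is the log2 fold change of batch 2 against batch 1 over the 4 groups (12 libraries each), with whiskers for the standard error, and filled points passed an adjusted p of 0.05. Nr4a1 (0.62) and Nr4a2 (0.36) lie to the right of 0 and Ier2 (-1.09), Junb (-0.77), Jun, Fosb and Fos to the left.

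Within groups the batches of Ier2 were far apart. In Ctr BSA it lay at 17 to 18.9 CPM in batch 1 and 5.80 to 8 CPM in batch 2, and in αGlu PA at 11.1 to 16.8 and 6.17 to 7.35 CPM. Over all groups the 12 libraries of batch 1 lay at 11.1 to 18.9 CPM and those of batch 2 at 2.94 to 9.69 CPM, with no overlap. The Jun libraries met at the edges, at 76.4 to 123 CPM in batch 1 and 46.3 to 85.9 CPM in batch 2.

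The PA response itself was compared between batches in a further fit. No member differed at an adjusted p below 0.05, as 0.0628% of all genes did, 10 in number, while 1036 genes had an unadjusted p below 0.05. Nr4a2 came nearest, with a response more negative by 0.27 in batch 2 (95% confidence interval -0.46 to -0.07, unadjusted p = 0.00961, adjusted p = 0.528). Nr4a1 differed by -0.20 (-0.53 to 0.13) and Fos by -0.34 (-0.77 to 0.09). Analysed alone, each batch called 3 members lowered by PA under each ASO: Nr4a1 and Nr4a2 in both batches, with Junb in batch 1 and Fos in batch 2. In the same fits 12.6% (batch 1) and 11.7% (batch 2) of all genes were called with Ctr, and 10.2% and 12.1% with αGlu.

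Genes that surround the immediate early genes in their pathway were read from lists. Over all genes tested, 14.5% fell and 15.5% rose with Ctr, and 14.2% fell and 14.4% rose with αGlu. Of 51 other immediate early genes, 17 fell and 7 rose with PA in Ctr libraries (median log2 fold change -0.21), and with αGlu again 17 fell and 7 rose (-0.13). The lowered genes with the smallest p were the circadian repressor Per2 (-0.97, SE 0.0650, adjusted p = 1.57e-10), Per1 (-0.70, SE 0.0699, adjusted p = 1.03e-07) and the matricellular gene Ccn2 (-2.07, SE 0.209, adjusted p = 1.14e-07). Ccn1 (-1.85) and Snai1, a repressor of epithelial genes (-2.28), had the largest changes beside Ccn2. The 7 raised genes, which were chosen for naming after their values were seen, were Gem (1.03), Atf3 (0.56), Plk3 (0.55), Ppp1r15a (0.50), Myc (0.46), Crem (0.31) and Gadd45a (0.23). Atf3, Ppp1r15a and Gadd45a are known targets of the integrated stress response.

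Feedback genes, which shut the signal down again, were divided: of 24 tested, 5 rose and 6 fell with Ctr, and 4 rose and 4 fell with αGlu (medians -0.02 and -0.04). The MAP kinase phosphatase Dusp4 rose by 0.58 (SE 0.107, adjusted p = 2.29e-04), the receptor signalling inhibitors Spry2 by 0.42 and Spred3 by 0.36, while Spry1 fell by 0.81 and the EGR corepressor Nab2 by 0.45. Of all genes tested, 15.5% rose and 14.5% fell with Ctr, and 14.4% rose and 14.2% fell with αGlu. Of 46 upstream factors and kinases, 7 rose and 13 fell with Ctr, and 3 rose and 14 fell with αGlu. Lowered were thus 13 and 14 of these 46, against 14.5% and 14.2% of all genes, without a test of the list. The upstream genes fell more often than all genes did under both ASOs, and rose no more often. Those that fell included Mrtfa, a coactivator of the serum response factor (-0.50, SE 0.0675, adjusted p = 6.10e-06), the acetyltransferase Ep300 (-0.44, SE 0.0601, adjusted p = 6.28e-06), the kinase Rps6ka1 (-0.54) and Mef2c (-0.74). Among 27 secondary genes of the activity response, 7 rose and 7 fell with Ctr, and 6 rose and 9 fell with αGlu. The glucose-responsive Txnip fell by 0.52 (SE 0.0814, adjusted p = 3.51e-05), Nptx1 by 0.68, Bdnf by 1.14 and Inhba by 0.95, while Tent5a rose by 0.41 and Stc2 by 0.86.

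Heat shock genes, which encode chaperones induced by cell stress, gave 6 raised and 0 lowered of 15 with Ctr, and 7 raised and 2 lowered with αGlu. Over all genes, 15.5% were raised and 14.5% lowered with Ctr, and 14.4% raised and 14.2% lowered with αGlu. The mitochondrial chaperones Hspd1 (0.30, SE 0.0484, adjusted p = 4.39e-05) and Hspe1 (0.35, SE 0.0650, adjusted p = 2.40e-04) rose most clearly, and Hspa1b rose by 0.60. Hspb1 (-0.61, adjusted p = 0.0956) and Cryab (-0.58, adjusted p = 0.0789) were not called with Ctr. In none of the 5 lists was a gene called for the αGlu ASO in BSA, in PA or in the difference between responses.

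**Figure D5:**
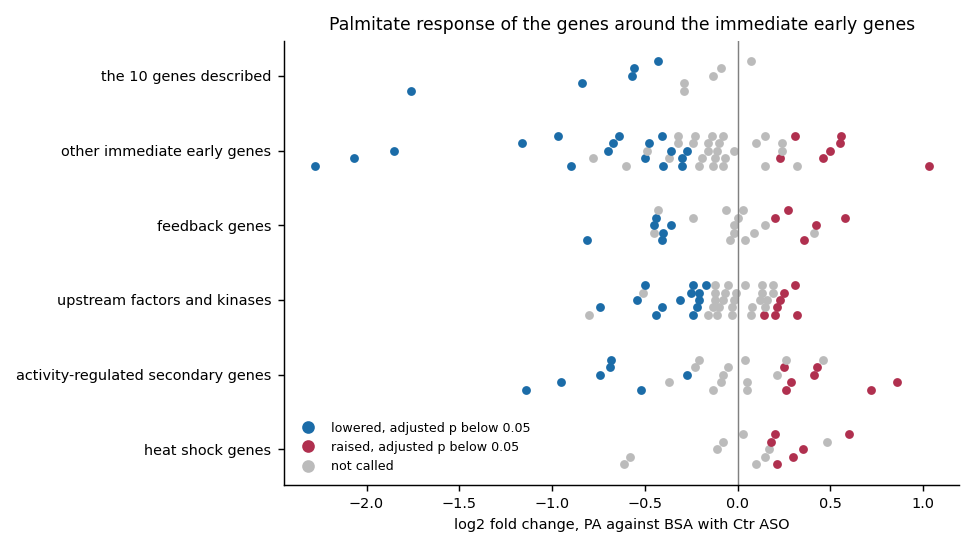
Response to PA with the Ctr ASO of the 10 genes and of the lists around them. The horizontal axis is the log2 fold change of PA against BSA. Each point is 1 gene, blue where lowered and red where raised at an adjusted p below 0.05, grey where not called, and the height within a row has no meaning. The 10 genes and the other immediate early genes reach farther to the left than the heat shock genes, of which 6 are raised and 0 lowered.

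Between batches, 37 of the 51 other immediate early genes were lower in batch 2 and 4 higher (median -0.44), among them Klf4 (-1.56, SE 0.101, adjusted p = 7.36e-12) and Pim1 (-1.26) lower and Plk3 (0.68) higher. Over all genes tested, 25.4% were lower in batch 2 and 26.1% higher. Of the feedback genes 13 were lower and 5 higher, with Dusp1 at -1.43 and Zfp36l1 at -2.18. The heat shock genes were divided, with 6 lower and 5 higher, Hspb1 lowest at -2.91. Of the upstream factors and kinases 17 were lower and 15 higher, and of the secondary genes 8 were lower, Txnip (-1.25) among them, and 11 higher, such as the β-cell gene G6pc2 (0.91).

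Across libraries Jun, Junb and Ier2 varied together. After the mean of each group and batch was subtracted, 40 of the 45 pairs of members had a correlation of log2 CPM above 0 over the 24 libraries (Pearson r -0.28 to 0.92, median 0.30). The closest pairs were Junb and Ier2 (0.92), Jun and Ier2 (0.86) and Jun and Junb (0.82), while Fos had 0.20 with Jun, 0.26 with Junb and 0.27 with Ier2. All pairs share the libraries and their depth, so these values are descriptions without a test. Library S23 held the lowest level of Jun, Junb, Fosb, Ier2 and Egr2 among all 24, and without it the 3 closest pairs had 0.89, 0.79 and 0.75.

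Each gene was also set against 11576 genes with a mean of at least 100 reads, by the correlation of log2 CPM over 24 libraries after the mean of the batch was subtracted. Differences between the groups were left in, so a shared PA response adds to these values. For scale, Nr4a1 and Nr4a2 had 0.92 with each other in this way, and 0.53 once group means were subtracted too. The values below are the 3 highest of the 11576 for each gene, given without a test. Fos was most like Wwtr1 (0.90), Yap1 (0.90) and Plk2 (0.89), and Junb most like Myh9 (0.94), Ddit4 (0.93) and Myl6 (0.92). Nr4a1 was most like Sik1 (0.94), Col4a5 (0.93) and Tnfrsf10b (0.93), and Nr4a2 most like Rnf145 (0.91), Apaf1 (0.91) and Cytip (0.90). For Jun the nearest were Psmc3 (0.84), Chgb (0.84) and Lyar (0.83), and for Ier2 Snrpb (0.89), Vasp (0.88) and Cfl1 (0.88). Egr2 was nearest to Ifitm3 (0.80), Loxl2 (0.80) and Trip6 (0.79), and Fosb to Oplah (0.77), Crip2 (0.76) and Exosc10 (0.75). Npas4 (Sema4c, 0.74) and Egr1 (Ccnyl1, 0.71) had the least similar nearest genes.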

How the data were processed

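The authors sequenced poly(A) mRNA of 24 samples with a stranded kit and deposited 1 table with, for each gene, the read counts and the TPM values; the submitters' processing notes name the build GRCm38, and the paper names the QIAGEN RNA-seq Analysis Portal for annotating and normalizing reads, with no aligner, annotation release, filter or strand setting. The 10 genes and all lists were chosen with earlier results of these data known. Each library was treated as 1 replicate; the study describes replicates as independent experiments whose groups came from the same animal, and the labels do not say which libraries those are.

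From the deposited counts, genes were filtered with filterByExpr (minimum count 10), scaled by TMM and fitted in edgeR 4.0.16 (R 4.3.3) by the quasi-likelihood test, with 4 groups and 1 batch term over all 24 libraries. Benjamini-Hochberg adjusted p-values cover the 15916 genes tested, and 0.05 was the threshold. CPM are TMM-scaled, and log2 CPM used a prior count of 2. The deposited TPM were used only to compare levels between genes. Named genes were all 10 members, up to 3 genes of smallest p per list and comparison and, for PA in Ctr, up to 3 of largest fold with a mean of 10 counts or more; 1 gene named by this rule is not reported here. The table had 1 blank line with 0 counts. Alternatives were DESeq2 1.42.0, upper-quartile scaling, other filters, no batch term, single batches and libraries left out. Cross-batch PA fits, the fit without S1 and S23, pair correlations without S23 and a replicate block of consecutive libraries were chosen after seeing the data. Egr2 had 1 to 61 reads a library and a biological coefficient of variation of 55.4%; p-values measure the spread between libraries. The model was tested on simulated data that held no batch effect and larger changes than most members showed. That test does not cover the batch term or changes of the size most members showed.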

Additional observations from a re-analysis of the deposited data

Results flagged for a closer look

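Of 40 sets of 6 libraries (10 genes in 4 groups), 3 held a library far from the other 5 by Dixon's criterion at its 95% critical value. Chance flags about 1 in 20 such sets. Fos measured 17.3 CPM in αGlu PA library S8, where the next library had 10.7 CPM. Egr1 measured 28.1 CPM in αGlu BSA library S6, next to 22.4 CPM. Nr4a2 measured 35.4 CPM in αGlu PA library S16, next to 31.1 CPM. The PA calls of Fos and Nr4a2 with αGlu were kept in each of the 24 fits that left out 1 library.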

How the results depend on the processing

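The labels name no pairs, but libraries fall into 6 sets of 4 consecutive numbers, each with every group. After group and batch means were subtracted, libraries of 1 set correlated across genes at 0.02 to 0.37, those of other sets of the batch at -0.31 to 0.12, and 24 of 24 libraries were closest to their own set, a hint from the data and not from the design. These sets were then used as a replicate block in place of the batch term, a fit chosen after seeing the data. It called 5 members for PA with Ctr, 6 with αGlu and 0 for the ASO or the difference between responses. No member's call changed. Of all genes, this fit called 35.3% for PA with Ctr and 34.1% with αGlu. It called 9 genes for the ASO in BSA, and 0 for the ASO in PA or the difference between responses. With single batches, 3 members were called for PA with Ctr in batch 1 and 3 in batch 2, and likewise 3 and 3 with αGlu, as were 10.2% to 12.6% of all genes. By the study's threshold 1 member was called for PA with Ctr, 1 with αGlu and 1 between batches. Of all genes 5.91%, 5.57% and 6.38% passed it. Leaving out 1 library at a time gave 4 to 5 members for PA with Ctr, 6 in each fit with αGlu, 6 to 8 between batches and 0 in each fit for the αGlu ASO and the difference between responses. Junb under both ASOs, and Fosb with αGlu (adjusted p = 0.0701), lost their call without a batch term. Between batches, Fos lost its call with upper-quartile scaling (adjusted p = 0.0512) and in the Ctr and αGlu libraries alone, and Fosb in the Ctr libraries alone. Egr2 could not be fitted for PA with Ctr on those groups alone, since it fell under the filter. Without S1 and S23, the counts were 5 for PA with Ctr, 6 with αGlu and 8 between batches, where Egr1 passed (adjusted p = 0.0465). That fit called 34.3%, 35.8% and 54.6% of all genes. The cause of these changes was not tested. Among 726 alternative values of members 47 had another sign, 0 of them with a call in either fit. Egr2, at 1 to 61 reads a library and a biological coefficient of variation of 55.4%, gave -1.40 to -2.31 in single batches without a call.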

Other observations

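In each of the 4 groups of batch 1 the library with the highest Fos level was one of S5 (21.6 CPM), S6 (19.4 CPM), S7 (16.9 CPM) and S8 (17.3 CPM), libraries with consecutive numbers. In batch 2, αGlu BSA library S22 lay below the mean of its group and batch for 10 of the 10 genes, and was the lowest of its 3 for 8. The study says that the groups of a replicate came from the same animal, and the sample records do not say whether consecutive libraries did.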
